A study of Prunus dulcis and Prunus persica with 12 samples.

Results

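A set of 137 genes of the almond cultivar Texas was studied whose more highly expressed allele differed between flower and fruit. Texas is a highly heterozygous almond (*Prunus dulcis*), and its 2 haplotypes are named P0 and P1. The members were chosen by the P0 share, that is the P0 reads as a percentage of all reads that could be assigned to an allele. A gene had to have at least 10 such reads in each of 3 flower and 3 fruit libraries. Its P0 share had to be above 50% in every library of one organ and below 50% in every library of the other. The shares pooled over the libraries of an organ had to lie at least 10 points apart and each between 10 and 90%. Of 6182 genes in the allele table, 4438 had the required reads, and 137 of these (3.09%) met the whole rule. P0 was the higher allele in flower and P1 in fruit in 67 genes, and P1 was the higher allele in flower and P0 in fruit in 70 genes.

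RNA was taken from flowers at the pink stage and from immature fruits of field-grown, normally watered Texas trees, with 3 biological replicates each. Whether the replicates of an organ came from separate trees is not given in the sources used here, and p-values measure only the spread between these samples. The series also holds 6 libraries of peach (*Prunus persica*) cv. Early Gold, which were not analysed here. The gene identifiers of the Texas annotation have no names in the sources used here, so members are given by identifier and the organ labels were not checked against marker genes. All members come from 1 genotype.

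In a diploid plant, both copies of a gene are read out in the same nucleus by the same transcription factors. A lasting difference between the RNA levels of the copies is therefore usually traced to sequence differences in or near the gene, called cis-regulatory differences, such as promoter changes or transposon insertions. Such a difference can act in some organs only, because enhancers and the factors that bind them differ between organs. Imprinting, RNA stability and reads lost in mapping can also make the copies unequal in a read count.

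Gene reads ranged from 49635915 to 54926220 in the flower libraries and from 40130120 to 46999320 in the fruit libraries. Allele-specific reads, counted at SNPs within coding sequence, ranged from 4056885 to 4651851 in flower and from 3110060 to 3762663 in fruit. P0 held 53.1 to 53.3% of them in flower and 52.4 to 52.8% in fruit. Reads had been mapped to P0, and the part of mapping in this excess of P0 was not tested. When the P1 reads of each library were scaled to the total of its P0 reads, 158 genes met the rule, and 93 of the 137 members were among them. The 44 members that left had a median gap of 13.5 points, against 20.6 points in the 93 that stayed. Of the 20 genes with the largest gaps, 10 in each direction, 19 stayed and TexasF0_G22538 left.

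The rule used every flower and fruit share, so the sizes of the shares and of the gaps are a description of the chosen genes and were not tested. Before the conditions on gap and limits, 214 genes lay on opposite sides of 50% in the 2 organs, 108 with P0 higher in flower and 106 with P1. The gap was under 10 points in 75 of these. For another 2 genes a pooled share fell outside the limits, since P0 dropped from 58.0 to 2.88% in TexasF0_G15178 and from 55.6 to 0.393% in TexasF0_G4754. By contrast, in 1164 of the 4438 genes (26.2%) the same allele was higher in all 6 libraries with pooled shares within the limits, and this allele was P0 in 807 of them. These 1164 genes are called steady genes below.

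Gaps among the 137 members ran from 10.1 to 59.2 points, with a median of 19.0. At least 20 points separated the organs in 60 members, at least 30 points in 26 and at least 40 points in 8. In the 67 genes with P0 higher in flower, the median P0 share was 58.3% in flower and 41.0% in fruit. In the 70 genes with P1 higher in flower, it was 41.6% in flower and 59.7% in fruit. A share past 60% in one organ and below 40% in the other was found in 20 members. In 72 members only one of the organs was past these limits, and in 45 neither was. The 95% Wilson interval of the pooled share, which covers counting error only, left out 50% in both organs in 107 members and in one organ in all the others.

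**Figure D1:**
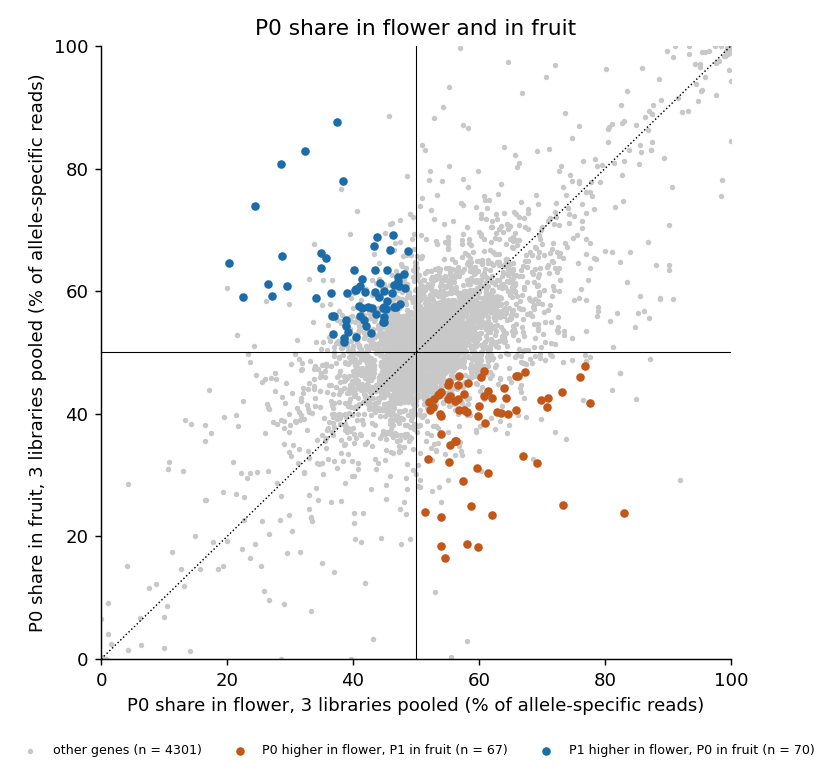
P0 share in flower (x axis) and in fruit (y axis), each pooled over 3 libraries, for the 4438 genes with at least 10 allele-specific reads in each library. The 67 genes with P0 higher in flower (orange) lie below 50% in fruit and the 70 with P1 higher in flower (blue) lie above it, while the other genes (grey) spread along the dotted line of equal shares.

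The genes at the border of the rule show how small the least of these differences were. Just inside it lay TexasF0_G28844, with 55.3% P0 in flower and 45.2% in fruit, and TexasF0_G6264, with 44.9% in flower and 55.0% in fruit. Just outside lay TexasF0_G29411, at 54.6 and 44.7% with a gap of 9.95 points, and TexasF0_G26637, at 55.0 and 45.2% with a gap of 9.80 points. The P0 share of TexasF0_G6264 was 49.1, 40.1 and 46.0% in the flower libraries, so its spread in flower was nearly as wide as its gap.

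Across members, the SD of the P0 share between the 3 libraries of an organ had a median of 2.62 points in flower (0.285 to 15.3) and 4.07 points in fruit (0.495 to 20.1). Relative to the SD that counting alone gives at these depths, with each read taken as a separate count, the median was 1.18 in flower and 1.27 in fruit. The spread was more than 2 times the counting SD in 30 members in flower and in 33 in fruit. A library stood more than 10 points away from both others of its organ in 14 members for fruit replicate 3, 10 for fruit replicate 2, 9 for fruit replicate 1, 10 for flower replicate 2, 5 for flower replicate 3 and 1 for flower replicate 1. The rule bounds this spread only by the side of 50%.

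The largest gap belonged to TexasF0_G7030 on chromosome 2. Its P0 share was 80.2, 81.6 and 88.5% in flower and 18.5, 28.5 and 28.8% in fruit. The most P0-poor flower library thus stood above the most P0-rich fruit library by a wide margin, on 2025 flower and 652 fruit reads. Next came TexasF0_G20223 on chromosome 6, with 74.4, 72.3 and 73.6% P0 in flower and 34.8, 17.0 and 23.5% in fruit, on 1556 and 1379 reads. The flower libraries agreed within a few points here, while the fruit libraries spread over an SD of 9.04 points (n = 3).

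Other members with P0 higher in flower and a large gap differed in how far each organ was from balance. TexasF0_G3359 had 54.8, 54.7 and 54.3% P0 in flower and 13.4, 17.5 and 18.5% in fruit. TexasF0_G15890 had 57.1, 59.3 and 62.6% in flower and 14.6, 15.2 and 21.7% in fruit. In flower, P0 was moderately ahead in TexasF0_G15890. In TexasF0_G3359 it was barely above the 53.1 to 53.3% that P0 held of all allele-specific flower reads. The pooled P0 share in fruit was 16.4% in TexasF0_G3359 and 18.2% in TexasF0_G15890. TexasF0_G18455 had the opposite form, with 75.1, 78.3 and 78.9% P0 in flower and 34.1, 31.5 and 47.6% in fruit, where replicate 3 came close to 50%. The remaining genes of the 10 with the largest gaps in this direction were TexasF0_G22538, TexasF0_G26129, TexasF0_G2870, TexasF0_G10276 and TexasF0_G3982, with gaps of 39.3, 38.7, 37.3, 35.6 and 33.9 points. TexasF0_G22538 rested on only 17 and 11 reads in fruit replicates 1 and 2, with P0 shares of 11.8 and 0.0%, and on 196 reads with 20.4% in replicate 3.

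Among members with P1 higher in flower, TexasF0_G18156 on chromosome 5 had the most allele-specific reads. Its P0 share was 28.5, 29.6 and 27.9% in flower and 64.3, 66.6 and 66.3% in fruit. With 166763 reads in flower and 23299 in fruit, the 95% Wilson intervals of the pooled shares were 28.5 to 28.9% and 65.1 to 66.4%. They cover counting error only, and single libraries of both organs lay outside them. The pooled shares of the 2 organs lay 37.0 points apart, with SDs of 0.838 and 1.25 points between libraries (n = 3 each).

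TexasF0_G28949 on chromosome 8 had 18.7, 20.6 and 21.7% P0 in flower and 71.8, 75.4 and 57.9% in fruit, on 2876 and 4810 reads. TexasF0_G1060 on chromosome 1 had 39.4, 36.2 and 37.2% in flower and 88.1, 93.3 and 83.4% in fruit, on 773 and 1203 reads. These genes had a similar number of reads in both organs, so that neither share was limited by a low count. TexasF0_G5413 had 26.6, 24.5 and 30.0% in flower against 58.7, 55.0 and 62.4% in fruit. TexasF0_G26042 had 26.4, 27.1 and 26.1% against 57.5, 63.3 and 64.7%. Both were covered by over 1000 reads in each organ. P1 was far ahead in flower and P0 moderately ahead in fruit in this pair of genes.

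The other large gaps in this direction rested on few fruit reads. TexasF0_G29816 had the largest, with 26.0, 31.0 and 28.8% P0 in flower and 71.8, 64.4 and 95.8% in fruit, on 652 and 280 reads. TexasF0_G25828 had 28.2, 31.8 and 36.2% in flower and 87.0, 79.8 and 83.3% in fruit, on 11085 and 273 reads. TexasF0_G23275 had 28.3, 22.0 and 23.8% against 80.6, 76.3 and 72.3%, on 15932 and 276 reads. For these genes counting error was smaller in flower than in fruit. The Wilson interval of TexasF0_G23275 ran from 23.8 to 25.2% in flower and from 68.4 to 78.7% in fruit. Its flower libraries, at 22.0 to 28.3%, spread more widely than the flower interval, which leaves out the spread between libraries. TexasF0_G19438 and TexasF0_G18603 had 77 and 78 fruit reads, and the interval of the latter in fruit, 47.9 to 69.2%, took in 50%.

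**Figure D2:**
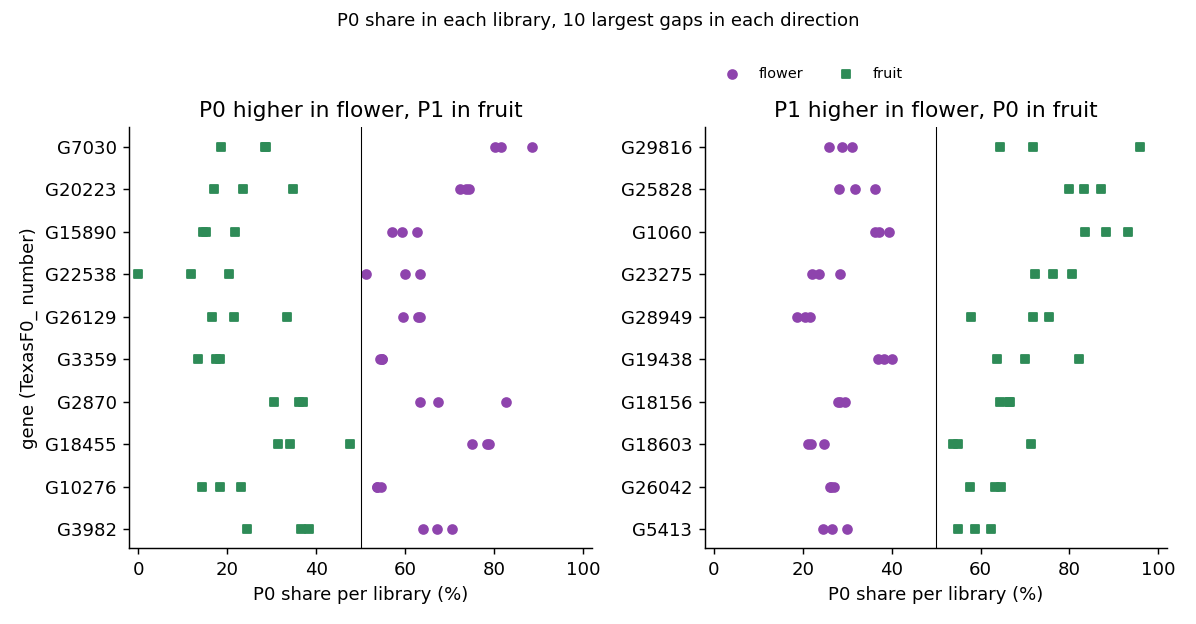
P0 share in each flower library (circles) and fruit library (squares) for the 10 genes with the largest gap in each direction, one gene per row, with 50% as a vertical line. Flower and fruit points lie on opposite sides of the line in every gene because the rule required it, and fruit points are often more spread, as in TexasF0_G29816 (64.4 to 95.8%).

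Depth differed among members. The summed allele-specific reads of the 6 libraries had a median of 2484 per member (135 to 190062), against 1690 over the 4438 genes. When these genes were ranked by reads and cut into 4 groups of equal size, members, from the least to the most covered group, made up 2.16, 2.35, 3.34 and 4.50%. Their median gap was 21.7, 18.6, 16.4 and 17.5 points in the same order. Steady genes made up 14.2, 23.0, 26.7 and 41.0% of these groups, so that both kinds of gene were found more often where reads were many. At least 1000 reads in each organ were available for 49 members, whose median gap was 15.0 points and whose largest was the 48.2 points of TexasF0_G20223. Fewer than 100 reads were available in fruit for 11 members and in flower for 4.

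The same contrast as that of the rule was also fitted as a model for all genes, and its calls are given as a description. With edgeR's quasi-likelihood test and a term for each library, the allelic ratio was called different between the organs in 7.48% of the 5737 genes tested and in 101 of the 137 members. P0 and P1 were called different in flower in 25.1% of all genes and 72 members, and in fruit in 21.9% of all genes and 84 members. In 50 members the alleles were called different in both organs, and in 31 in neither organ. Nothing is read from these counts, since the rule used the contrast.

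A switch can come about through a change in one allele or in both, and the reads of each allele were therefore followed separately, as reads-per-million (RPM) of the allele-specific reads of a library. In members with P0 higher in flower, the median log2 ratio of flower to fruit was 1.03 for P0 and -0.34 for P1. In members with P1 higher in flower, it was -0.53 for P0 and 0.50 for P1. Over all 4438 genes the medians were -0.41 for P0 and -0.43 for P1, so this scale places the typical gene lower in flower. By their means, both alleles were higher in flower in 57 members, both were higher in fruit in 48, and the alleles moved in opposite directions in 32. These counts by means were not made over all 4438 genes and are given as a description only.

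The reads of both alleles were higher in flower than in fruit, with no overlap between libraries, in 40 members (29.2%), against 12.8% of the 4438 genes. Both were higher in fruit without overlap in 30 members (21.9%), against 34.6%. When libraries were scaled by the median ratio over genes in place of the total, an alternative chosen after seeing the data, these counts were 47 members (34.3%) against 21.7% and 18 members (13.1%) against 21.1%. A single allele separated the organs in 49 members, P0 in 28 and P1 in 21. The share of all 4438 genes with a single such allele was not counted, so nothing is read from these numbers. Where the reads of both alleles separated the organs, the alleles mostly changed in the same direction in members, with opposite directions in 4. This held over all 4438 genes as well, with 570 and 1534 genes in the same direction and 18 in opposite directions. The rule itself requires unequal amounts of change, so nothing about the switch is read from this.

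**Figure D3:**
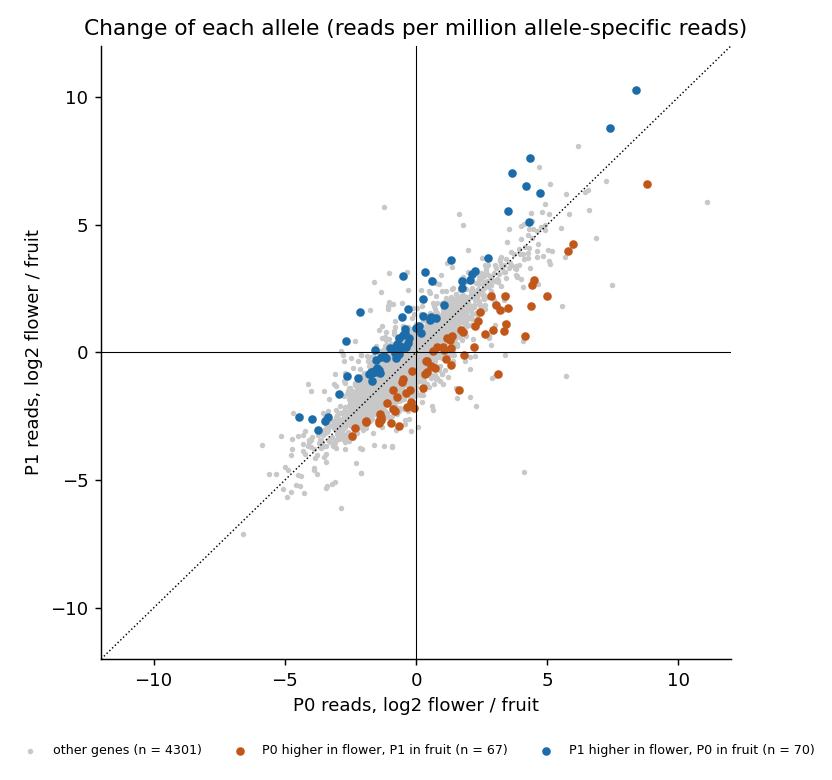
Log2 ratio of flower to fruit of the P0 reads (x axis) and of the P1 reads (y axis), both in RPM, for 67 members with P0 higher in flower (orange), 70 with P1 higher in flower (blue) and the other genes (grey). Members lie off the dotted line of equal change by construction, and most lie in the quadrants where both alleles changed in the same direction.

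Opposite changes of the alleles, each without overlap between organs, were found in 4 members (2.92%), against 0.406% (18 genes) of all 4438. The rule favours this pattern, since it asks the shares to cross 50%. TexasF0_G1060 showed it most widely. Its P0 reads were 21.4, 20.2 and 25.4 RPM in flower, against 69.1, 105 and 127 RPM in fruit. Its P1 reads were 32.8, 35.7 and 42.9 in flower and 9.32, 7.60 and 25.2 in fruit. P0 was thus higher in every fruit library and P1 in every flower library.

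In TexasF0_G20223 the exchange ran the other way. P0 reads were 84.8, 90.5 and 86.8 RPM in flower, against 37.6, 11.4 and 50.8 in fruit. P1 reads were 29.2, 34.6 and 31.1 in flower and 70.4, 55.9 and 165 in fruit, where replicate 3 had more than 2 times the level of the others. The other genes with this pattern were TexasF0_G14427 and TexasF0_G5120, which like the alternative scaling were singled out after their values were seen. With libraries scaled by the median ratio, TexasF0_G14427 and TexasF0_G5120 no longer showed it, TexasF0_G4915 did, and TexasF0_G1060 and TexasF0_G20223 showed it under both scalings.

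**Figure D4:**
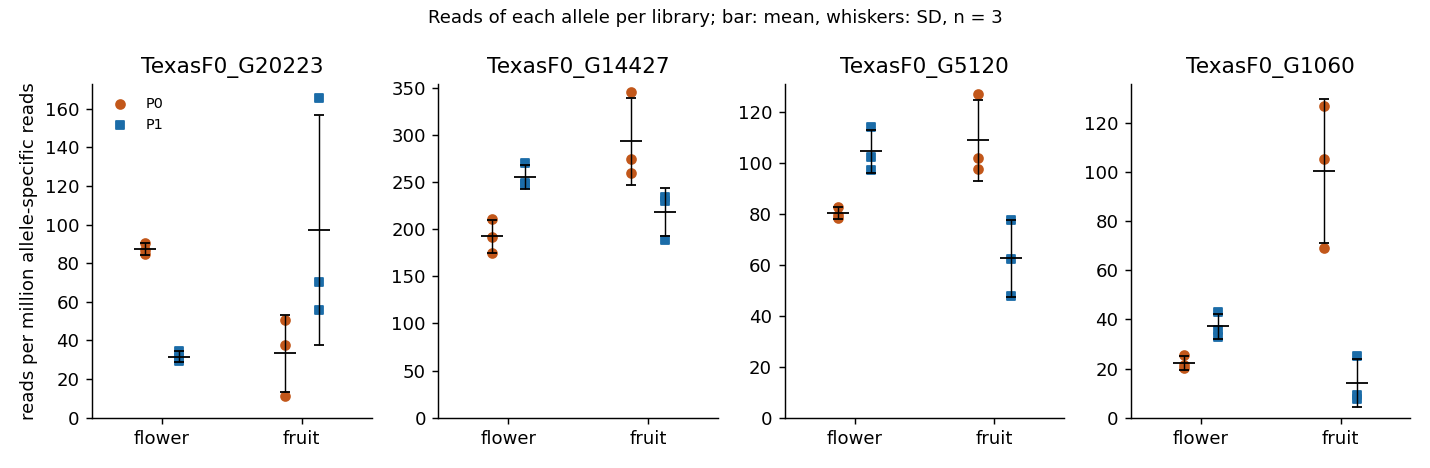
P0 reads (orange circles) and P1 reads (blue squares) in RPM in each flower and fruit library, with the mean and SD (n = 3), for the 4 members whose alleles changed in opposite directions without overlap. In TexasF0_G20223 P0 fell from 84.8 or more in flower to 50.8 or less in fruit, and in the other 3 genes P0 was higher in every fruit library.

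The total expression of these 4 genes was not called different between the organs. They were picked for opposite changes of their alleles, which partly offset each other in the total, so nothing is read from this. Among the tested genes with the required reads, 25.6% were called higher in flower and 28.1% in fruit. In counts-per-million (CPM) of gene reads, which take both alleles together, TexasF0_G1060 had 44.7, 43.2 and 56.3 in flower and 46.0, 67.5 and 88.3 in fruit. Its fold change was not called (log2 -0.49, SE 0.25, edgeR adjusted p = 0.128). TexasF0_G20223 had 20.4, 19.0 and 20.4 CPM in flower and 12.2, 13.6 and 25.5 in fruit (log2 0.22, SE 0.28, adjusted p = 0.532). The ranges of both genes overlapped between organs. Each was nevertheless called when a library was left out, TexasF0_G1060 without fruit replicate 1 (log2 -0.70, adjusted p = 0.0143) and TexasF0_G20223 without fruit replicate 3 (log2 0.63, adjusted p = 0.0151). With upper-quartile factors TexasF0_G1060 was also called higher in fruit (log2 -0.63, adjusted p = 0.0490). TexasF0_G14427 (log2 0.05, SE 0.16, adjusted p = 0.791) and TexasF0_G5120 (log2 0.16, SE 0.17, adjusted p = 0.453) had no called change either.

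Gene counts were not used by the rule, and they were compared between flower and fruit by the quasi-likelihood test of edgeR (Benjamini-Hochberg adjustment over the 19917 genes tested, threshold 0.05). All 137 members passed the filter on low counts. Counts were higher in flower in 60 members (43.8%), higher in fruit in 30 (21.9%) and not called in 47 (34.3%). Over all genes tested, flower was higher in 27.6% and fruit in 28%. Among the tested genes with the allele-specific reads that the rule requires, flower was higher in 25.6% and fruit in 28.1%. The share of members higher in flower was thus above both backgrounds and that of members higher in fruit below both. In the well covered members described below, the share higher in fruit was not below its background. Steady genes, with 25.2% higher in flower and 28.9% in fruit, lay close to the backgrounds. In bulk RNA, less RNA per cell and fewer cells of a type cannot be told apart.

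Members also changed more in size. The median absolute log2 fold change was 1.20 in members, 0.65 in the genes with the required reads and 0.64 in steady genes. It was at least 1, a 2-fold difference, in 54.7% of members against 32.3% of genes with the required reads. The signed median was 0.43 in members and -0.06 in the genes with the required reads. Median expression was 44.7 CPM in flower and 25.6 in fruit for members, against 26.3 and 27.1 for genes with the required reads. Both directions of the switch showed more calls in flower than in fruit, with 33 against 16 of the 67 members with P0 higher in flower and 27 against 14 of the 70 with P1 higher in flower. Across the 137 members, the gap rose weakly with the log2 fold change (Spearman 0.23, Pearson 0.30) and with its absolute size (Spearman 0.29). These correlations are across genes of the same libraries and are given as a description.

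A gene that differs strongly between organs has few reads in one of them, where its share is least precise, and the counts were therefore also read for well covered genes only, a split added after the values were seen. Of the 49 members with at least 1000 allele-specific reads in each organ, gene counts were higher in flower in 19 (38.8%) and in fruit in 13 (26.5%). The backgrounds over the 1504 tested genes with such coverage were 26.7% in flower and 21.5% in fruit. On the flower side, well covered members lay above the background, as all members did. On the fruit side, they lay somewhat above the background, where all members lay below it. The lower share of members higher in fruit was thus not seen in well covered genes. The split holds only 49 members, and neither difference was tested. The median absolute log2 fold change of the 49 members was 0.98, against 0.50 for the 1504 genes.

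**Figure D5:**
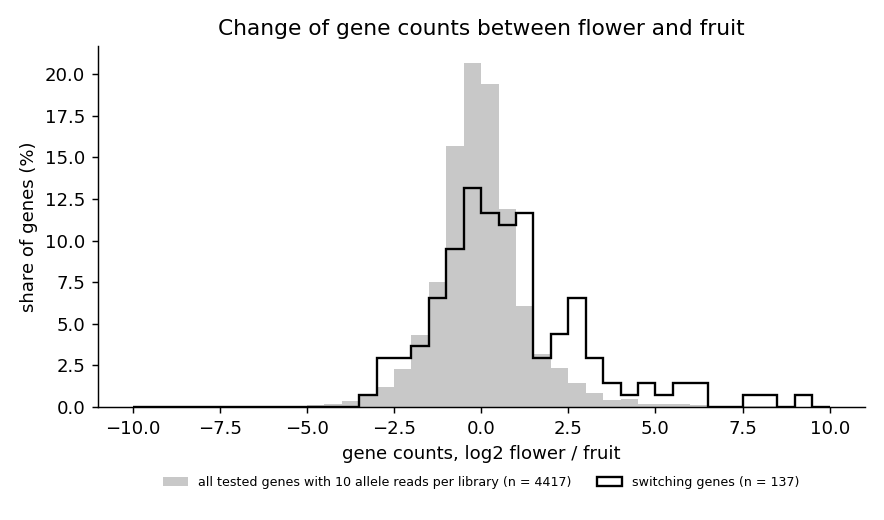
Share of genes (y axis, in percent) by log2 ratio of flower to fruit of the gene counts (x axis, bins of 0.5) for the 137 members (black line) and for the 4417 tested genes with 10 allele-specific reads per library (grey). The members have a longer tail on the flower side, up to 9.07.

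The flower side held members whose counts in fruit were far below those in flower. Counts were called higher in flower by a log2 of at least 4 in 11 members (8.03%), against 1.36% of the genes with the required reads. No member was called higher in fruit to this extent, against 0.317% of those genes. That share is too small for a set of 137 genes to show a difference from it. TexasF0_G29536 had 1383, 1104 and 1237 CPM in flower and 2.81, 1.91 and 2.17 in fruit, the widest difference of all members (log2 9.07, SE 0.31, adjusted p = 3.41e-06). Its P0 share was 44.9, 43.6 and 42.9% in flower, on 105111 reads. In fruit it was 61.1, 93.3 and 56.4% on 154 reads, so that replicate 2 stood far from the others.

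TexasF0_G26711 had 1725, 1662 and 2228 CPM in flower and 7.48, 10.5 and 5.59 in fruit (log2 7.90, SE 0.38, adjusted p = 6.79e-06), and its P0 share was 45.9% in flower and 66.7% in fruit on 78 reads. TexasF0_G10276 had 380, 261 and 501 CPM in flower and 1.06, 1.10 and 1.86 in fruit (log2 8.14, SE 0.41, adjusted p = 8.09e-06), with P0 shares of 54.0 and 18.5% on 13014 and 65 reads. In these 3 genes the alleles were near balance in flower, and the switch rested on a trace of fruit reads. Among the 11 members, fruit reads ranged from 65 to 276. The Wilson interval of the fruit share took in 50% in TexasF0_G18603 and TexasF0_G19418 and left it out in the other 9.

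On the fruit side, TexasF0_G28972 changed most, with 7.05, 4.60 and 6.58 CPM in flower and 104, 45.7 and 17.7 in fruit (log2 -3.20, SE 0.59, adjusted p = 0.00268). TexasF0_G6614 had 9.29, 6.65 and 7.28 CPM in flower and 57.4, 78.9 and 42.0 in fruit (log2 -2.94, SE 0.27, adjusted p = 7.74e-05). TexasF0_G634 had 9.00, 9.86 and 10.2 CPM in flower and 101, 82.4 and 24.1 in fruit (log2 -2.84, SE 0.48, adjusted p = 0.00167). Every fruit library stood above every flower library in these genes, and in TexasF0_G28972 and TexasF0_G634 the fruit libraries differed several fold among themselves. All 3 had P1 higher in flower, with pooled P0 shares of 34.9 and 63.8% in TexasF0_G28972, 36.4 and 59.6% in TexasF0_G6614 and 40.4 and 52.5% in TexasF0_G634. Here it was the flower share that rested on the lower count, with 218, 151 and 240 reads.

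The distance of a share from 50% was compared between the organs in the light of these counts. In the 60 members with higher counts in flower, the median distance was 8.30 points in flower and 9.82 in fruit, on medians of 2790 and 449 allele-specific reads. In the 30 with higher counts in fruit, it was 9.58 points in flower and 7.77 in fruit, on medians of 543 and 1863 reads. In the 47 not called, it was 8.03 and 9.63 points, on 677 and 885 reads. The rule chose the members by the same shares, so nothing is read from these distances, and the part of counting error in them was not tested.

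Among the 20 genes with the largest gaps, the log2 fold change of gene counts ran from -2.08 to 8.14. Higher counts in flower were called in 43.8% of all members and in 25.6% of the genes with the required reads. The 20 genes were picked by gap, and several had few fruit reads, so nothing is read from their number of calls. Of the 10 with P0 higher in flower, 7 were called higher in flower, and TexasF0_G2870 was called higher in fruit (log2 -2.08, SE 0.65, adjusted p = 0.0274). The call of TexasF0_G2870 was lost when any flower library or fruit replicate 3 was left out (adjusted p 0.0513 to 0.0940). Its fruit libraries had 3.33, 3.80 and 16.7 CPM, and without fruit replicate 3 its log2 fold change was -0.92. TexasF0_G22538 was not called (log2 1.10, SE 0.81, adjusted p = 0.282), with 2.31, 2.76 and 23.8 CPM in fruit. Without fruit replicate 3, TexasF0_G22538 was called higher in flower (log2 3.03, adjusted p = 9.98e-06). Fruit replicate 3 was more than 2 times as high as both other fruit libraries in 11 of the 137 members, fruit replicate 1 in 3 and fruit replicate 2 in 0.

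Of the 10 genes with the largest gaps and P1 higher in flower, 8 were called higher in flower, again in a list picked by gap. TexasF0_G18156 was the most expressed, with 3877, 3818 and 3840 CPM in flower and 522, 694 and 303 in fruit (log2 2.93, SE 0.35, adjusted p = 0.000288). TexasF0_G29816 was called by a narrower margin (log2 1.23, SE 0.34, adjusted p = 0.0159), and without flower replicate 1 or flower replicate 2 its adjusted p was 0.0600 or 0.0531. The exceptions were TexasF0_G1060, given above, and TexasF0_G28949, which had 77.7, 95.7 and 84.8 CPM in flower and 75.1, 128 and 280 in fruit (log2 -0.90, SE 0.43, adjusted p = 0.107). Its fruit libraries spread more widely than the organs differed, and without fruit replicate 1 it was called higher in fruit (log2 -1.24, adjusted p = 0.0142).

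The reads behind the shares followed the gene counts about equally in both organs. Pooled over libraries, members had a median of 0.236 allele-specific reads per gene read in flower and 0.219 in fruit, against 0.240 and 0.219 for all genes with the required reads. The ratio changed by more than 2-fold between the organs in 0 members and in 1.65% of those genes. It exceeded 1, so that a gene had more reads in the allele table than in the gene table, in 9 members (6.57%) and in 307 of the 4438 genes (6.92%).

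Members lay on every chromosome. Row names tie part of the genes to a chromosome, and the number in the identifiers runs along chromosomes, so that all 137 members were placed by their neighbours' numbers. Of 2251 genes with both, 2250 had the same chromosome by row name and by neighbours. Members made up between 1.91% (9 of 470 genes with the required reads, chromosome 2) and 4.78% (17 of 356, chromosome 5). Chromosome 1 held most of them, 29 of 1105 genes. Both directions occurred on each chromosome.

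Members were neighbours in 3 pairs whose gene numbers differed by at most 2. TexasF0_G14277 and TexasF0_G14278 on chromosome 4 switched in the same direction, with P0 shares of 56.9 and 57.4% in flower against 40.7 and 29.0% in fruit, and both had higher gene counts in flower (log2 1.46 and 2.95). TexasF0_G23066 and TexasF0_G23068 on chromosome 6 also shared a direction, with 41.4 and 38.9% in flower against 62.1 and 55.3% in fruit, and neither differed in gene counts by the test (log2 -0.37 and 0.12). TexasF0_G19608 and TexasF0_G19610 on chromosome 5 switched in opposite directions, from 53.6 to 43.2% and from 41.9 to 59.8%. No other member had a member that close.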

How the data were processed

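Deposited tables of almond cv. Texas were used for 3 flower and 3 fruit libraries. The estimated counts per gene were made by the authors with Bowtie2 and RSEM on transcript models, and are whole numbers as deposited. The allele counts per gene were made by the authors by aligning reads to P0 (Hisat2) and counting the bases of both alleles at coding SNPs without nearby indels with ASEReadCounter, so reads carrying P1 bases can be lost. The submitters' processing notes name minimap2, HISAT2 and GATK, and versions are not given in the sources used here. Tables of regularized log values were not used, nor were 9 leaf columns of the used tables, which match no sample. Of the gene identifiers, 0 matched the gene name table.

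Shares, gaps and the rule were computed from the allele counts. Allele changes used a pseudocount of 0.5 reads. Tests used edgeR 4.0.16 in R 4.3.3 (quasi-likelihood, Benjamini-Hochberg, threshold 0.05). Gene counts were fitted to flower and fruit with TMM factors and filterByExpr, and allele counts with a library term and an allele effect per organ, without scaling between alleles. DESeq2 1.42.0, other scalings, filters, read minimums and gaps, a replicate block and leaving out each library were alternatives. On simulated data, 100 of 200 genes changed 2-fold were called in the gene count fit (20071 genes), with 5 false calls. The simulation gave all genes and both organs the same dispersion and changed only genes with many reads. In these data the fruit replicates differed more among themselves than the flower replicates, so the simulation does not give the error rates here.

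Named genes were the 10 with the largest gap in each direction, the 3 with the largest called change of gene counts in each direction, and the 2 genes nearest the gap limit on each side. Members and lists were chosen with earlier results of these data known. Replicate numbers were not taken as pairs of libraries, and both organs had 3 libraries, which limits the precision of each test.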

Additional observations from a re-analysis of the deposited data

Results flagged for a closer look

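The allelic ratio was called different between flower and fruit in 101 of the 137 members, which met the criterion of a tested difference between organs. This follows from how the members were chosen, and no weight is given to it. The formal outlier check asks for at least 4 samples in a group, and was not applied to groups of 3.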

How the results depend on the processing

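The number of members was 212 with no minimum gap and 60 with a gap of at least 20 points, against 137. It was 143, 125 and 97 with read minimums of 5, 20 and 50, 139 without limits on the pooled shares, and 158 with P1 reads scaled to equal totals. Leaving out 1 library gave 197 to 219 genes, since fewer libraries then have to agree, with 125 to 132 of the members among them.

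The called difference of allelic ratio in 101 members became 11 without the library term (no replicate block), 71 with DESeq2 and 76 to 89 without 1 library. Over all genes, 429 calls became 34, 270 and 285 to 370 under the same alternatives, so the members' counts moved with those of all genes. Counts higher in flower (60) ranged from 54 to 64 without 1 library and those higher in fruit (30) from 21 to 36. With upper-quartile factors, which shifted the median log2 fold change of all genes by -0.15, they were 55 and 37, and with DESeq2 65 and 29. The share of all tested genes called was not counted under any alternative to the gene count fit. Whether the members' differences from the backgrounds held there is therefore not known. Replicate numbers are shared by the organs in the labels, but the deviations of same-numbered libraries correlated at 0.056, -0.200 and 0.136, so the numbers were not taken as pairs. These few values cannot exclude a pairing. With the replicate block, 62 members were higher in flower and 26 in fruit, and the calls of 2 named genes changed: TexasF0_G2870 was no longer called (log2 -1.64, adjusted p = 0.0715) and TexasF0_G22538 was called higher in flower (log2 2.00, adjusted p = 0.0390).

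Members with both alleles higher in fruit without overlap were 18 in place of 30 when scaled by the median ratio. Of 270 values of named genes under an alternative, 253 kept direction and call. The direction of TexasF0_G28844, never called (log2 -0.03), reversed with DESeq2 (0.030) and without flower replicate 3, fruit replicate 2 or fruit replicate 3 (0.025 to 0.041). The cause of these differences was not tested. Low fruit reads limit the shares of genes that were strongly higher in flower.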
